A study of Arabidopsis thaliana with 16 samples.

Results

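The 9 genes described here encode the enzymes of the entry into phenylpropanoid metabolism in Arabidopsis: the phenylalanine ammonia-lyases PAL1 to PAL4, the cinnamate hydroxylase C4H, and the coumarate:CoA ligases 4CL1, 4CL2, 4CL3 and 4CL5. They were listed by name, with earlier results of these data known. Each was held by an assembled locus in both tables of counts, of 20880 loci in the zeocin table and 22818 in the UV-C table. All libraries came from Columbia (Col-0) seedlings aged 15 days and raised in vitro. Zeocin, a drug that breaks DNA, was given at 200 microg/ml for 3 h to the seedlings of 5 libraries, with 5 mock libraries beside them. UV-C was given at 8 kJ/m2 to those of 3 further libraries, which had 3 mock libraries of their own. How long after UV-C the seedlings were taken is not stated. Nothing says that replicates were separate cultures, so p-values measure a spread between libraries that may be technical.

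Phenylpropanoids are plant phenolics made from the amino acid phenylalanine. PAL removes its amino group to give cinnamate, C4H, an enzyme of the cytochrome P450 class in the endoplasmic reticulum, hydroxylates cinnamate to coumarate, and 4CL joins coumarate to coenzyme A. Coumaroyl-CoA is then the common substrate for lignin, for flavonoids and, through feruloyl-CoA, for coumarins, and plants are known to raise this pathway after wounding, pathogen attack and ultraviolet light.

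Total counts were between 31185080 and 44536500 in the zeocin libraries and between 31329853 and 41488445 in their mock libraries. They were between 27973871 and 30014943 in the UV-C libraries and between 32161555 and 37507136 in their mock libraries. Levels below are TMM-scaled CPM (counts scaled to library size) of the locus that stands for a gene. The treatment labels were checked on known targets: BRCA1 averaged 576 ± 40.3 CPM after zeocin and 4.28 ± 0.279 CPM in its mock (SD, n = 5 each), and ACS2 averaged 71.1 ± 1.97 CPM after UV-C and 0.174 ± 0.0267 CPM in its mock (SD, n = 3 each). These targets come from a list of 5 check genes. AOX1A, a UV-C target on that list, ranged from 7.46 to 78.7 CPM among the zeocin mock libraries. Both the leaf and the root marker lists were detected in every group, as whole seedlings should give. Being bulk samples, they cannot tell fewer cells of a type from less RNA per cell.

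The genes lie on 4 of the 5 nuclear chromosomes of the TAIR10 build. In the zeocin table PAL1 (AT2G37040) was counted over chr2:15557427-15560406, PAL2 (AT3G53260) over chr3:19744064-19746801, PAL3 (AT5G04230) over chr5:1160654-1163870, and PAL4 (AT3G10340) over chr3:3204039-3207562. C4H (AT2G30490) was counted over chr2:12993654-12995803, 4CL1 (AT1G51680) over chr1:19158759-19161626, 4CL3 (AT1G65060) over chr1:24167249-24171519, 4CL5 (AT3G21230) over chr3:7448060-7451978, and 4CL2 (AT3G21240) over chr3:7454260-7457364. 4CL5 and 4CL2 are tandem neighbours on the minus strand, with 2162 bases and 0 annotated genes between them. The loci covered between 77.1% and 93.0% of the exonic length of these genes in the zeocin table and between 68.3% and 93.5% in the UV-C table. Among the coding sequences of the PAL family, PAL1 and PAL2 were the most alike pair at 83.9% identical bases, followed by PAL3 and PAL4 at 78.9%. In the 4CL family 4CL1 and 4CL2 were 81.6% identical, and 4CL5 was between 66.7% and 70.1% identical to the others. Stretches of 50 bases that occur elsewhere in the genome made up 31 of 2833 in PAL1 and 31 of 2789 in PAL2 and 0 in each of the other 7 genes; reads with several places in the genome were not counted.

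Promoters of this pathway are known for AC elements, short C-rich motifs bound by MYB transcription factors. Their known forms ACCTACC (also called AC-I), ACCAACC (the AC-II form) and ACCTAAC (the AC-III form) were searched on both strands in the 500 bases before each start codon, a window that takes in the 5′ untranslated region. Any of the 3 was found for 7 of the 9 genes (all but PAL4 and 4CL5), against 11.7% of 27443 such windows in the genome, and every match lay on the gene's own strand. By the annotated gene starts, the matches of PAL1, PAL2, PAL3, C4H and 4CL1 all lie inside the gene. Those of 4CL2 and 4CL3 lie upstream of the annotated start. The loci assembled in the zeocin table start elsewhere. By their starts the PAL3 match lies 28 bases upstream, and the C4H matches lie 20, 63 and 163 bases upstream. The ACCAACC matches of PAL1 and PAL2 lie 311 and 310 bases upstream, and the 4CL1 matches lie inside the locus. By the loci of the UV-C table each of these matches lies on the same side. ACCAACC alone was found for 6 of the genes, against 5.48% of windows, and ACCTACC for 3, against 2.15%. The following stretches, read from the TAIR10.1 reference in the direction of the gene with the element in capitals, are shown because they are the sequence feature that most of the genes share. They lie at chr2:15560404-15560433 (PAL1, minus strand), chr3:19746768-19746797 (PAL2, minus), chr5:1160615-1160644 (PAL3, plus), chr2:12995805-12995834 and chr2:12995948-12995977 (C4H, minus), chr1:19161602-19161631 (4CL1, minus), chr3:7457417-7457446 (4CL2, minus) and chr1:24171685-24171714 (4CL3, minus).
PAL1: tctatacgcttACCTACCaacaaacactac
PAL2: ctcttgtccttACCTAACaacaacactaac
PAL3: ccaaggcacaaACCAACCcactcactcaca
C4H, nearer the start codon: tcatttctcaaACCAACCaaacctctccct
C4H, farther from the start codon: ggtctttctttACCTACCaccatcaacaac
4CL1: ctaacattttcACCAACCccaccgtctact
4CL2: aataacatttcACCAACCacaaattctttt
4CL3: ccattccctctACCTACCccaatttcttct
In PAL1 and PAL2 the element shown stands 185 and 167 bases before the start codon, in similar surroundings. It lies 16 bases upstream of the first base of the PAL1 locus assembled in the zeocin table, and 15 bases inside that of PAL2. In the UV-C table the element lies 4 bases inside the PAL1 locus and 11 bases inside that of PAL2. The W-box letters TTGACC and TTGACT, known from WRKY factor binding, were found for 0 of the 9 genes, against 45% of windows. The G-box CACGTG was found for PAL4 alone, against 9.3% of windows. A match describes these letters in this window and says nothing on binding.

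The UV-C seedlings were compared with their own mock seedlings. All the PAL genes, C4H, 4CL1, 4CL2 and 4CL5 rose, by between 1.46-fold for PAL3 and 6.33-fold for 4CL2, and no member fell. The count of 8 of 9 that rose stands against 33.6% of the 19587 loci tested, with 30.9% that fell and 64.4% called in either direction by edgeR's quasi-likelihood test at a Benjamini-Hochberg adjusted p below 0.05. A rise of at least 1 on the log2 scale was called for 7 of the 9, against 18.2% of loci. In all 9 genes every UV-C library lay above every mock library, which held for 36.2% of loci, while 34.3% had every UV-C library below. The median log2 fold change was 1.83 over the 9 genes and 0.00 over all loci tested, and with upper quartile scaling the median over all loci moved to -0.10 and the split of all loci to 5758 that rose and 7099 that fell. The summed level of the 9 genes was 1142 ± 107 CPM after UV-C and 256 ± 28.6 CPM in mock seedlings (SD, n = 3 each), 4.46-fold higher, with an exact two-sided permutation p of 0.1, the smallest that 3 against 3 libraries allow.

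PAL1 and PAL2, the most abundant ammonia-lyases and those best known for lignin and flavonoid supply, rose by nearly the same factor. PAL1 had 301, 327 and 373 CPM in the UV-C libraries, against 67.3, 45.3 and 65.5 CPM in the mock libraries. Its log2 fold change was 2.49 ± 0.16 (SE; adjusted p = 3.03e-06, edgeR's quasi-likelihood test), a 5.61-fold rise. PAL2 had 320, 325 and 375 CPM after UV-C, against 66.2, 54.7 and 55.7 CPM in mock, a log2 fold change of 2.53 ± 0.10 (adjusted p = 1.25e-08). The lowest UV-C library of either gene stood more than 4 times above its highest mock library.

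PAL4, a low-level ammonia-lyase, had 13.2, 14.0 and 19.0 CPM after UV-C, against 5.20, 4.09 and 5.61 CPM in mock. It rose by 1.63 ± 0.17 on the log2 scale (adjusted p = 2.06e-05, edgeR), with the third UV-C library the highest. PAL3, whose enzyme is known to be weakly active, rose least. It had 10.1, 9.84 and 11.0 CPM after UV-C, against 6.53, 8.98 and 5.69 CPM in mock, a log2 fold change of 0.54 ± 0.16 (adjusted p = 0.0121, edgeR). Mock library 2 came nearest to the UV-C libraries. In the UV-C table PAL3 was split between loci: the piece used holds 74.5% of its exonic length, and a smaller piece with the first 20.4% had 15, 7 and 7 counts after UV-C, against 24, 26 and 22 counts in mock (log2 fold change -0.88 ± 0.37, adjusted p = 0.0597, edgeR). With both pieces summed the log2 fold change of PAL3 was 0.46 (adjusted p = 0.0232, edgeR).

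C4H, the only gene for its step, had 259, 288 and 326 CPM after UV-C, against 89.1, 69.9 and 86.5 CPM in mock. The groups stood well apart, and the gene rose by 1.83 ± 0.12 on the log2 scale, 3.55-fold (adjusted p = 5.80e-07, edgeR's quasi-likelihood test). Summed over each family, the rise was 5.36-fold for the PAL genes and 3.49-fold for the 4CL genes.

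Among the ligases, 4CL1 and 4CL2 are best known for lignin, 4CL3 for flavonoids, and 4CL5 for also accepting sinapate. 4CL1 had 101, 108 and 112 CPM after UV-C, against 36.0, 33.3 and 32.7 CPM in mock, and rose by 1.65 ± 0.08 on the log2 scale (adjusted p = 3.00e-08, edgeR). 4CL2 had 37.1, 29.9 and 30.1 CPM after UV-C, against 5.23, 4.46 and 5.63 CPM in mock. Its rise of 2.66 ± 0.12 on the log2 scale (adjusted p = 2.97e-08, edgeR) was the highest estimate of the 9 genes. 4CL5, its tandem neighbour, had 10.1, 9.94 and 11.5 CPM after UV-C, against 3.33, 1.93 and 2.32 CPM in mock, and rose by 2.05 ± 0.18 (adjusted p = 4.64e-06, edgeR). 4CL3 had 2.20, 2.64 and 3.53 CPM after UV-C, against 2.11, 2.04 and 2.06 CPM in mock. Its groups did not overlap, but the log2 fold change of 0.43 ± 0.20 was not called (95% interval -0.02 to 0.87, adjusted p = 0.0834, edgeR). Without UV-C replicate 1 it was 0.57 and called (adjusted p = 0.0303), and with the second 4CL3 locus of the UV-C table added it was 0.24 (adjusted p = 0.269). The 2 genes with no AC element in the window, PAL4 and 4CL5, both rose, and of the 7 with an element PAL3 and 4CL3 had the smallest log2 fold changes. A relation between the elements and the response was not tested.

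**Figure D1:**
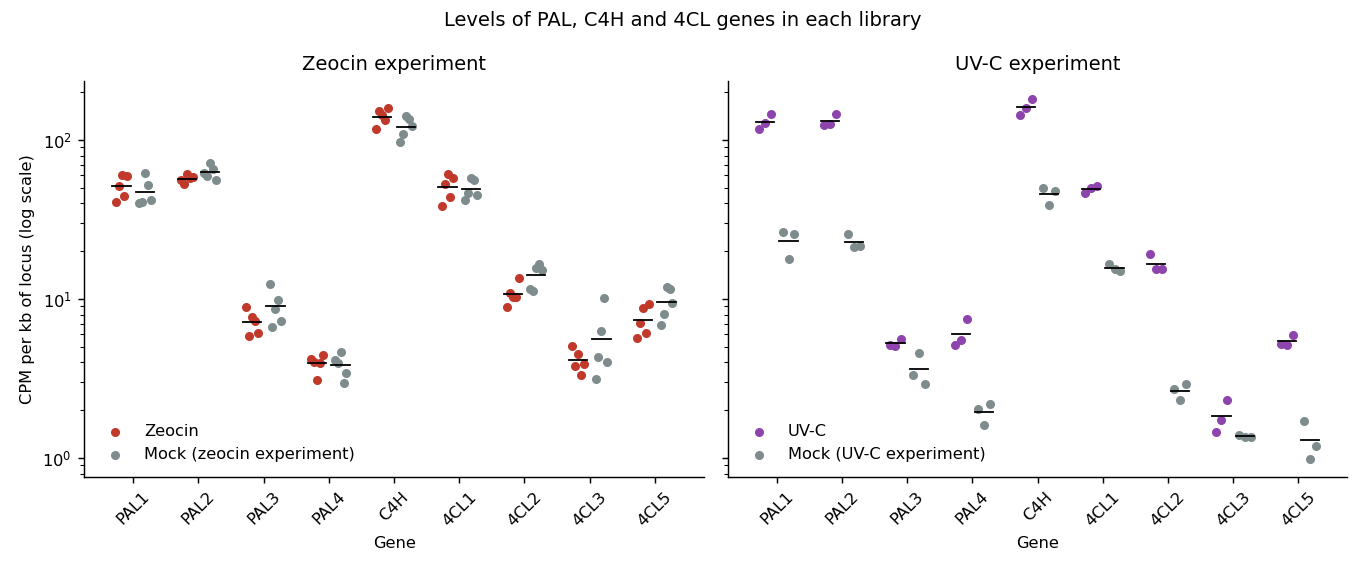
Level of each gene in each library, as TMM-scaled CPM per kb of locus on a log scale, with each point a library and each black bar a group mean. After UV-C every point lies above every mock point of the same gene, from PAL1 at 118 to 146 against 17.8 to 26.4 CPM per kb, to 4CL3 at 1.45 to 2.34 against 1.35 to 1.39, whereas the zeocin and mock points overlap for all 9 genes.

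The short zeocin treatment was compared with its mock in the same way. None of the 9 genes rose and 1, 4CL2, fell, where 15.0% of the 19447 loci tested rose, 12.0% fell and 27.0% were called in either direction. None of the 9 was called with a rise of at least 1 on the log2 scale, against 5.16% of loci. The zeocin and mock groups overlapped for every member, while 11.5% of loci had every zeocin library above every mock library and 8.13% had every zeocin library below. The median log2 fold change was -0.14 over the 9 genes and -0.02 over all loci tested. With upper quartile scaling 2502 loci rose and 3066 fell, in place of 2917 and 2328. The summed level was 709 ± 74.8 CPM after zeocin and 693 ± 94.4 CPM in mock (SD, n = 5 each; exact two-sided permutation p = 0.762).

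C4H had 216, 280, 265, 245 and 292 CPM in the zeocin libraries, against 178, 201, 262, 250 and 227 CPM in the mock libraries. Its log2 fold change of 0.21 ± 0.12 was not called (95% interval -0.04 to 0.46, adjusted p = 0.200, edgeR). PAL1 had 103, 129, 153, 113 and 151 CPM after zeocin, against 102, 103, 156, 132 and 106 CPM in mock (log2 fold change 0.12 ± 0.14, 95% interval -0.19 to 0.42, adjusted p = 0.595, edgeR). The upper ends of both intervals lie below the rise of either gene after UV-C. PAL2 was the steadiest member, with 141, 134, 155, 145 and 148 CPM after zeocin, against 158, 150, 182, 167 and 141 CPM in mock (log2 fold change -0.14 ± 0.08, adjusted p = 0.234, edgeR). PAL3 and PAL4 had log2 fold changes of -0.32 ± 0.17 (adjusted p = 0.174) and 0.04 ± 0.14 (adjusted p = 0.871), neither called by edgeR.

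4CL2 had 17.5, 21.4, 20.1, 20.2 and 26.7 CPM after zeocin, against 22.8, 22.1, 30.6, 32.6 and 29.8 CPM in mock. The groups overlapped, since zeocin replicate 5 stood above mock replicates 1 and 2. It fell by 0.38 ± 0.13 on the log2 scale (adjusted p = 0.0440, edgeR's quasi-likelihood test). The call was lost, with log2 fold changes of -0.39 to -0.31 and adjusted p of 0.0817 to 0.114, when any of zeocin replicates 1 to 4 or mock replicates 3 to 5 was left out. 4CL5 had 11.0, 13.5, 16.9, 11.7 and 17.8 CPM after zeocin, against 13.1, 15.5, 22.7, 22.1 and 18.2 CPM in mock. Its log2 fold change of -0.37 ± 0.17 was not called (adjusted p = 0.135, edgeR), and was called at -0.47 (adjusted p = 0.0431) without mock replicate 1. 4CL1 had a log2 fold change of 0.04 ± 0.13 (adjusted p = 0.855, edgeR). 4CL3 varied most among mock libraries, at 5.94, 8.12, 11.8, 19.1 and 7.59 CPM, against 9.54, 7.19, 8.49, 6.28 and 7.32 CPM after zeocin (log2 fold change -0.44 ± 0.29, 95% interval -1.07 to 0.19, adjusted p = 0.292, edgeR).

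The responses to the treatments were then compared in a joint fit of 17182 genes measured in both tables, as the zeocin response minus the UV-C response. The difference was called and negative for 8 of the 9 genes, against 23.4% of all genes with a lower response to zeocin, 23.8% with a higher one and 47.2% called in either direction. It was largest for 4CL2 at -3.01 ± 0.21 on the log2 scale (adjusted p = 7.37e-09, edgeR's quasi-likelihood test), followed by PAL2 at -2.64 ± 0.14, 4CL5 at -2.39 ± 0.30 and PAL1 at -2.34 ± 0.24. C4H, 4CL1 and PAL4 were close together at -1.58 ± 0.18, -1.58 ± 0.19 and -1.56 ± 0.23. PAL3 differed by -0.83 ± 0.28 (adjusted p = 0.0213, edgeR), and this call was lost without UV-C replicate 3 (-0.78), mock replicate 1 (-0.77) or mock replicate 3 of the UV-C experiment (-0.69). 4CL3 differed by -0.83 ± 0.44 and was not called (adjusted p = 0.134, edgeR). The experiments differed in mock level too: C4H averaged 224 ± 34.5 CPM in the mock seedlings of the zeocin experiment (SD, n = 5) and 81.9 ± 10.4 CPM in those of the UV-C experiment (SD, n = 3). In the same groups 4CL2 averaged 27.6 ± 4.83 and 5.11 ± 0.597 CPM, 4CL5 18.3 ± 4.15 and 2.52 ± 0.724, and PAL1 120 ± 23.7 and 59.4 ± 12.2. Each of the 9 genes had the lower mean in the UV-C mock seedlings. The tables were scaled separately and counted on separate assemblies with loci of differing length, so these differences in mock level were not tested. Plastid loci, which are part of the counts, took 30.6% to 35.8% in the zeocin mock libraries and 44.2% to 46.8% in the UV-C mock libraries. The experiment and the treatment cannot be told apart in the joint fit.

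**Figure D2:**
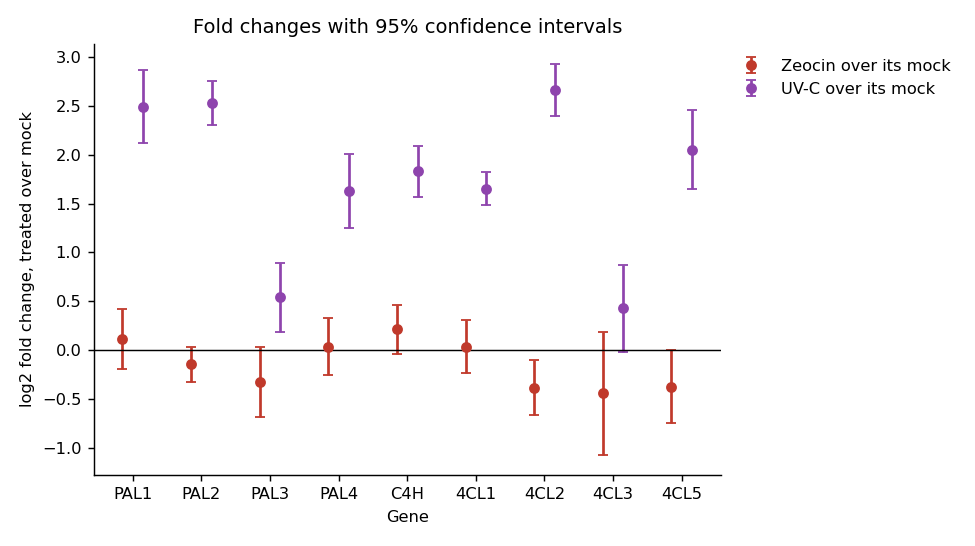
log2 fold change of each gene, zeocin over its mock (red) and UV-C over its mock (purple), with 95% confidence intervals from edgeR's fit. The UV-C values run from 0.43 for 4CL3 to 2.66 for 4CL2 and the zeocin values from -0.44 for 4CL3 to 0.21 for C4H, and the intervals of the treatments overlap only for 4CL3.

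Per kb of locus, C4H had the highest level in every group, and the order below it was compared within each table. In UV-C seedlings C4H stood at 162 ± 18.7 CPM per kb, PAL2 at 132 ± 11.9, PAL1 at 131 ± 14.3 and 4CL1 at 49.3 ± 2.59 (SD, n = 3). The ranges of C4H, PAL2 and PAL1 overlapped their neighbours there, and 4CL1 stood apart below them. In their mock seedlings C4H stood at 45.6 ± 5.79 CPM per kb, PAL1 at 23.3 ± 4.79, PAL2 at 22.9 ± 2.47 and 4CL1 at 15.7 ± 0.818, and C4H was apart from PAL1. The lower end of the order changed as well. After UV-C it ran 4CL2 (16.7), PAL4 (6.05), 4CL5 (5.42), PAL3 (5.29) and 4CL3 (1.84 CPM per kb), with PAL4, 4CL5 and PAL3 overlapping. In mock it ran PAL3 (3.63), 4CL2 (2.64), PAL4 (1.95), 4CL3 (1.37 CPM per kb) and 4CL5, where the ranges of 4CL3 and 4CL5 overlapped. In the zeocin experiment the order was C4H, PAL2, PAL1, 4CL1, 4CL2, 4CL5, PAL3, 4CL3 and PAL4 after zeocin. The mock order differed only in that 4CL1, at 49.5 ± 6.79 CPM per kb, stood ahead of PAL1, at 47.5 ± 9.40, with overlapping ranges.

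The make-up of the families was measured as the share of each gene in the summed CPM per kb of its family, which does not depend on library scaling. After UV-C 4CL2 held 22.8% ± 3.19 of the 4CL level, against 12.6% ± 1.40 in mock, and 4CL1 held 67.3% ± 2.59, against 74.8% ± 1.77 (SD, n = 3 each). 4CL3 held 2.51% ± 0.549, against 6.53% ± 0.285. Within the PAL family PAL3 held 1.94% ± 0.102 after UV-C, against 7.20% ± 2.60 in mock, and PAL4 held 2.19% ± 0.218, against 3.77% ± 0.375. In each of these 5 shares the groups did not overlap and the exact two-sided permutation p was 0.1, the smallest possible, or 0.145 adjusted over the 16 shares tested. PAL1 and PAL2 together made up nearly all of the PAL level, at 47.7% and 48.2% after UV-C, against 44.7% and 44.3% in mock. The PAL2 shares did not overlap either (exact permutation p = 0.1, adjusted 0.145), while those of PAL1 did (p = 0.5 by the same exact test). The UV-C loci of PAL3 and 4CL3 held only 74.5% and 68.3% of the exonic length of these genes. In the zeocin experiment 4CL1 held 69.3% ± 2.28 after zeocin, against 63.2% ± 3.06 in mock (SD, n = 5 each; exact permutation p = 0.0159, adjusted 0.127). 4CL2 held 14.9% ± 1.64, against 17.9% ± 1.67 (p = 0.0238 by the exact permutation test), and 4CL5 10.1% ± 0.665, against 12.1% ± 0.949 (p = 0.0159 by the same exact test), both also at an adjusted p of 0.127. None of the 16 shares passed the adjusted threshold. Shares of a family add up to the whole, so they are not independent of each other. A lower share is not a lower level: 4CL1, PAL3 and PAL4 rose after UV-C.

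**Figure D3:**
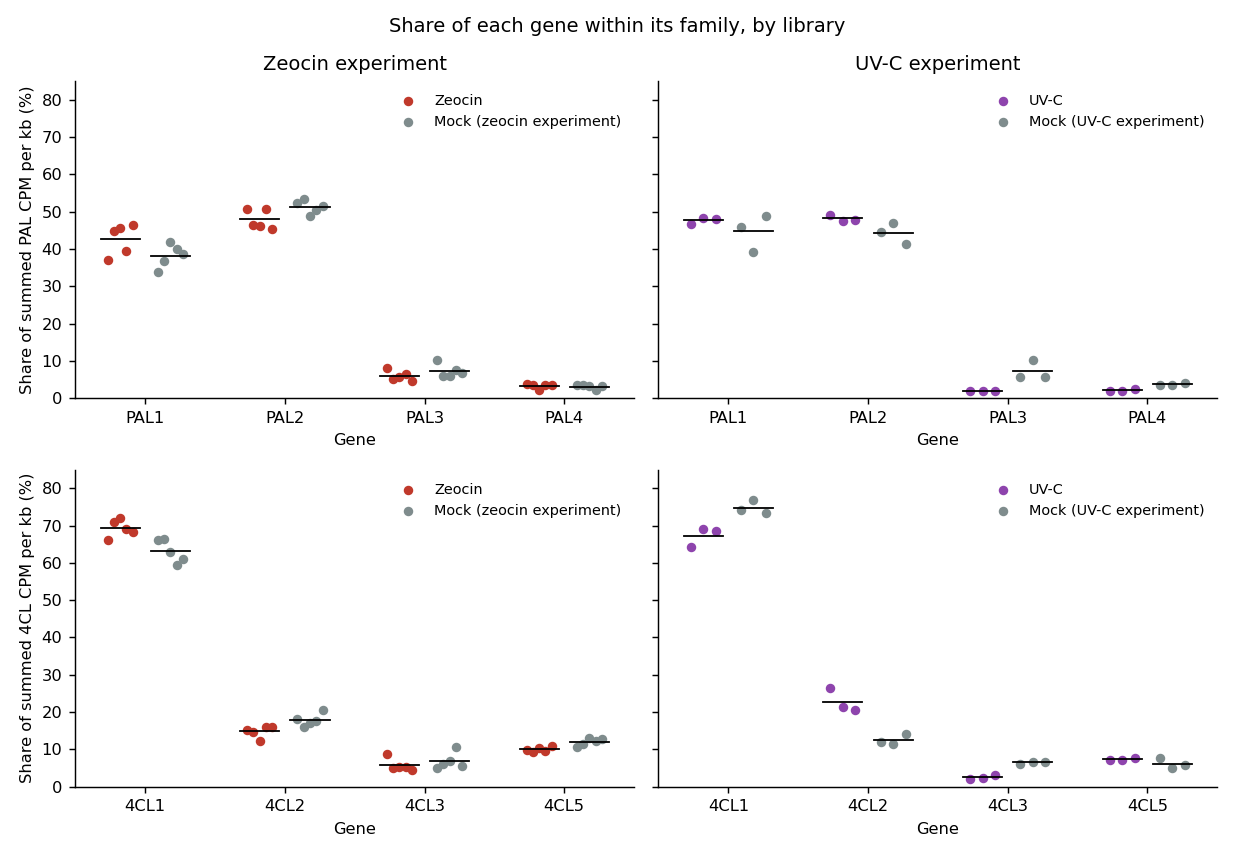
Share of each PAL gene (top) and 4CL gene (bottom) in the summed CPM per kb of its family, in percent, with each point a library and each black bar a group mean. After UV-C the points of 4CL2 lie between 20.6% and 26.5%, above the mock points between 11.5% and 14.2%, and those of PAL3 between 1.85% and 2.05%, below the mock points between 5.58% and 10.2%.

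How far the genes varied together was described by the correlation of their log2 CPM with that of C4H over libraries. In the 6 UV-C libraries, where treated and mock form separate clusters, within-group deviations of C4H correlated at 0.96 with those of PAL1, 0.94 with PAL4, 0.77 with PAL2 and -0.55 with PAL3, and at 0.75 with 4CL5, 0.70 with 4CL1, 0.69 with 4CL3 and 0.08 with 4CL2. Among the 10 libraries of the zeocin experiment the within-group values were 0.92 for 4CL5, 0.89 for 4CL2, 0.86 for PAL1, 0.85 for 4CL1, 0.51 for 4CL3, 0.41 for PAL2, -0.13 for PAL4 and -0.48 for PAL3. PAL1 and 4CL1 followed each other closely there, with r = 0.95 within groups. Libraries share their depth and handling, so these values are a description. Over all libraries, which in the UV-C table spans both clusters, and taking the lower r of the tables, the gene most like C4H among 16246 was MBF1A (AT2G42680; 0.97), a transcriptional coactivator. It was followed by the thioredoxin TH8 (AT1G69880; 0.97), the heat shock protein gene Hsp70-2 (AT5G02490; 0.96), AT4G11350 (0.95) and AT5G08300 (0.94). Of the other members PAL1 ranked 235 (0.84) and 4CL1 626 (0.76), while PAL2 ranked 5683 and PAL3 9261.

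Upstream of PAL, genes that supply phenylalanine through the shikimate pathway rose after UV-C in 14 of 18 measured cases and fell in 1, against 33.6% of all loci that rose and 30.9% that fell, with a median log2 fold change of 0.90. The arogenate dehydratases ADT4 and ADT5, which make phenylalanine itself, rose most. ADT4 had 162, 152 and 143 CPM after UV-C, against 9.13, 7.77 and 10.9 CPM in mock, a log2 fold change of 4.04 ± 0.12 with all libraries of the groups far apart. ADT5 rose by 2.83 ± 0.23, and DHS3, an enzyme of the first shikimate step, by 1.89 ± 0.08. The gene that fell was DHS2, of the same step, at 60.4 ± 1.51 CPM after UV-C and 102 ± 1.71 CPM in mock, named after its values were seen. After zeocin 2 of 19 measured supply genes rose, DHQS (dehydroquinate synthase) by 0.94 ± 0.08 and ADT5 by 0.37 ± 0.10, and ADT3 fell by 0.25 ± 0.08. Both counts are below the shares of all loci, 15.0% that rose and 12.0% that fell.

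C4H draws electrons from P450 reductases and is held in the membrane near scaffold proteins. The reductase gene ATR2 rose after both treatments, by 1.60 ± 0.10 after UV-C and by 0.61 ± 0.13 after zeocin, and so did the scaffold gene MSBP2, by 1.65 ± 0.08 after UV-C and 0.58 ± 0.10 after zeocin. Fold changes of these genes and those below are log2 values with their SE. ATR2 averaged 266 ± 7.17 CPM after UV-C and 87.7 ± 13.4 CPM in mock, and 299 ± 52.4 CPM after zeocin and 197 ± 21.8 CPM in mock. MSBP1 rose by 0.67 ± 0.08 after UV-C, while the reductase gene ATR1 fell by 0.35 ± 0.07 and the cytochrome b5 gene CB5D by 0.20 ± 0.07, the last pair named after their values were seen. The median of these 5 genes was 0.67 after UV-C and 0.07 after zeocin, where no member fell. The 3 that rose and 2 that fell after UV-C stand against 33.6% and 30.9% of all loci, and the 2 that rose after zeocin against 15.0%. PAL proteins are marked for degradation by Kelch F-box proteins, and 3 of their 4 measured genes fell after UV-C, against 30.9% of all loci. KFB50 averaged 48.0 ± 3.28 CPM after UV-C and 155 ± 0.918 CPM in mock, a log2 fold change of -1.69 ± 0.07, KFB20 fell by 1.58 ± 0.16 and KFB39 by 1.31 ± 0.11. None of the 3 measured after zeocin was called, and KFB50 had a log2 fold change of -0.43 ± 0.27 (adjusted p = 0.272, edgeR).

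Downstream, 10 of 12 measured monolignol genes rose after UV-C and 2 fell, against 33.6% and 30.9% of all loci, with a median of 1.02 on the log2 scale. CCR2, a cinnamoyl-CoA reductase known from defence, had 84.2, 83.2 and 85.2 CPM after UV-C, against 1.56, 0.719 and 2.18 CPM in mock, a rise of 5.81 ± 0.26. CAD5, a cinnamyl alcohol dehydrogenase of lignin formation, rose by 2.68 ± 0.12. CAD8 was nearly silent in mock, with 1, 0 and 5 counts there and 92, 102 and 41 counts after UV-C. The genes that fell were CAD7 (-1.57 ± 0.12) and F5H1 (-0.35 ± 0.09), named after their values were seen. Of the lignin polymerisation genes 5 of 7 rose and 0 fell, against the same shares, with the peroxidase PRX52 at 36, 39 and 51 counts after UV-C and 1, 2 and 2 counts in mock. The monolignol transporter gene ABCG29 rose by 1.40 ± 0.12 and the laccase gene LAC17 by 1.08 ± 0.19. After zeocin 1 of 12 monolignol genes rose, CCR2 by 0.79 ± 0.16, and 3 fell, F5H1 by 0.66 ± 0.09, CAD4 by 0.38 ± 0.10 and CSE by 0.31 ± 0.09, the last named after its value was seen. Among 7 polymerisation genes PRX64 fell by 0.87 ± 0.13 and ABCG29 rose by 0.53 ± 0.09 after zeocin. Over all loci 15.0% rose and 12.0% fell after zeocin.

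Of 5 flavonoid genes measured after UV-C 3 rose, F3H by 1.21 ± 0.28, chalcone synthase CHS by 0.99 ± 0.33 and CHI by 0.36 ± 0.14, and after zeocin the flavonol synthase FLS1 was the 1 of 6 that changed, falling by 1.15 ± 0.21. Of 4 sinapate ester genes measured after UV-C, the glucosyltransferase gene UGT84A2 rose by 1.53 ± 0.17. SNG1, which makes the leaf ester sinapoylmalate, fell by 1.20 ± 0.08, UGT84A3 by 0.78 ± 0.14, and REF1, named after its value was seen, by 0.58 ± 0.09. None of the 4 was called after zeocin, where UGT84A3 had a log2 fold change of -0.57 ± 0.22 (adjusted p = 0.0857, edgeR). Coumarin genes rose after both treatments in 3 cases, of 4 measured for UV-C and 5 for zeocin. The counts of these branches stand against 33.6% of all loci that rose and 30.9% that fell after UV-C, and 15.0% and 12.0% after zeocin. F6primeH1, the hydroxylase that opens this branch, averaged 55.5 ± 16.9 CPM after UV-C and 8.47 ± 3.48 CPM in mock (log2 fold change 2.71 ± 0.34), and 54.1 ± 6.44 CPM after zeocin and 37.0 ± 7.38 CPM in mock (0.55 ± 0.13). The coumarin synthase gene COSY rose by 1.52 ± 0.14 after UV-C and by 0.54 ± 0.12 after zeocin. CYP82C4, which acts on coumarins in iron shortage, rose by 0.91 ± 0.32 after UV-C and by 3.06 ± 0.87 after zeocin, where the zeocin libraries held 58, 110, 27, 17 and 4 counts, against 14, 0, 6, 3 and 2 counts in mock. Its groups overlapped after both treatments. The transporter gene ABCG37 fell by 0.32 ± 0.08 after zeocin, named after its value was seen. Of the 4CL-like ligases (4 measured for UV-C and 5 for zeocin) OPCL1, which serves jasmonate synthesis, rose after both treatments, by 2.62 ± 0.12 after UV-C and 0.46 ± 0.15 after zeocin, and AT4G05160 fell after UV-C by 0.46 ± 0.07, against the same shares of all loci.

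Of 8 measured regulators 7 rose after UV-C and 1 fell, against 33.6% and 30.9% of all loci, with a median of 1.26. MYB15, an activator of lignin genes in defence, had 99.7, 86.6 and 90.0 CPM after UV-C, against 0.572, 0.460 and 0.697 CPM in mock, a log2 fold change of 7.31 ± 0.13. MYB63, another activator of lignin genes, rose by 2.09 ± 0.26, and so did MYB7, of a clade of repressors, by 2.21 ± 0.29. MYB3, a repressor too, fell by 0.85 ± 0.12, named after its value was seen. After zeocin MYB15 had 7.22, 15.7, 16.3, 10.4 and 12.8 CPM, against 3.73, 5.34, 11.4, 6.77 and 5.17 CPM in mock. It rose by 0.95 ± 0.31 (adjusted p = 0.0444, edgeR) with overlapping groups. Of 10 regulators measured there, MYB12 rose by 0.78 ± 0.28 and MYB111, its relative among flavonol activators, fell by 1.86 ± 0.46, against 15.0% of all loci that rose and 12.0% that fell. Both had low counts and overlapping groups. MYB111 had 12, 19, 21, 20 and 10 counts after zeocin, against 13, 39, 73, 135 and 60 counts in mock. The adjusted p of MYB12 was 0.0478 (edgeR). Over the measured genes of the other lists the median log2 fold change after UV-C was -1.44 for Kelch F-box genes, 1.08 for lignin polymerisation, 0.36 for flavonoid steps, -0.68 for sinapate esters, 1.22 for coumarins and -0.06 for 4CL-like ligases, beside 0.00 over all loci. After zeocin the medians lay between -0.28 for flavonoid steps and 0.54 for coumarins, beside -0.02 over all loci. Listed genes with no locus of their own, or too few counts, were not tested.

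**Figure D4:**
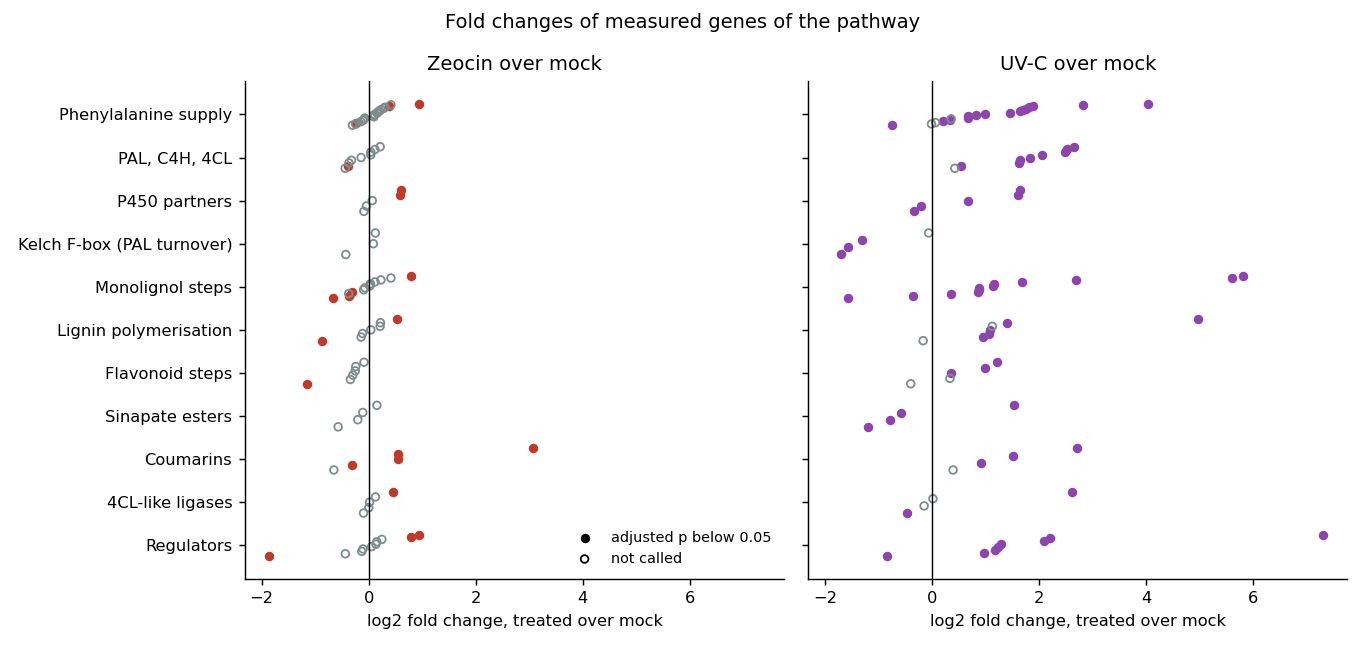
log2 fold change of every measured gene of the pathway lists, zeocin over mock (left) and UV-C over mock (right), with filled points for an adjusted p below 0.05 and open points for genes not called. After UV-C the entry genes, with a median of 1.83, lie above 0, 14 of 18 measured supply genes and 10 of 12 measured monolignol genes are filled points above 0, and 3 of 4 Kelch F-box genes are filled points below 0.

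Marker levels moved along with the treatments, and their part in these results was not tested. Of all loci 33.6% rose and 30.9% fell after UV-C, and 15.0% rose and 12.0% fell after zeocin. After UV-C 3 of 4 measured xylem markers rose, with a summed level of 30.8 to 39.7 CPM after UV-C and 15.8 to 20.7 CPM in mock. All 3 epidermis markers fell, to 69.1 to 86.4 CPM after UV-C, against 207 to 267 CPM in mock, and 3 of 4 shoot markers fell, to 11910 to 12494 CPM, against 17482 to 19009 CPM. Root markers fell in 2 of 5 cases, with summed levels that overlapped at 88.0 to 126 CPM after UV-C and 87.5 to 147 CPM in mock. Plastid loci took 37.0% to 40.5% of counts after UV-C and 44.2% to 46.8% in mock. After zeocin all 5 root markers fell, to a sum of 119 to 150 CPM, against 320 to 370 CPM in mock, none of the 5 xylem and 3 measured shoot markers was called, and 1 of 3 epidermis markers fell.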

How the data were processed

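Fragments per assembled locus were deposited by the authors as raw counts, 1 table per experiment. The submitters' processing notes name Trim Galore 0.11.8 for trimming, STAR 2.7.1a for alignment and the TAIR10 build. Per the file headers loci were assembled with StringTie 2.1.5 and counted with featureCounts 2.0.1 over exons with strand used, and reads with several places were not counted. The assemblies' score column, as deposited, was written by StringTie and not used for any value. RNA was depleted of ribosomal RNA, per the labels' protocols. From these counts, each locus was given a gene by same-strand exonic overlap of at least 50%, the longest overlap standing for the gene. edgeR 4.0.16 (R 4.3.3; TMM, filterByExpr, robust quasi-likelihood test, two-sided) was fitted to each table, 19447 and 19587 loci, and to 17182 genes jointly, with Benjamini-Hochberg adjustment over all features and calls below 0.05. Standard errors come from the test statistic. The fits were tested on simulated counts with far fewer changed loci than were called here, so the scaling was not checked under such wide change. All per-sample columns were mapped, and groups follow the sample titles.

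Members and gene lists were chosen with earlier results of these data known. All 9 members were named, with up to 3 called genes per list and experiment by size of log2 fold change, and the 5 genes most like C4H. The promoter window was chosen after the files were seen, and motifs and identities were computed with Biopython 1.88. Same-numbered treated and mock libraries did not deviate together in every case, so no block was used in the main fits. Alternatives were upper quartile and RLE factors, DESeq2 1.42.0, no count filter, a replicate block, each library left out, summed loci and an overlap of 80%.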

Additional observations from a re-analysis of the deposited data

Results flagged for a closer look

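For 8 of the 9 entry genes the response to zeocin differed from that to UV-C in the joint fit (edgeR's quasi-likelihood test, interaction term, Benjamini-Hochberg adjusted p below 0.05), against 47.2% of the 17182 genes in that fit, 23.4% with a lower response to zeocin. On the log2 scale, zeocin response minus UV-C response, the differences were -2.34 for PAL1, -2.64 for PAL2, -0.83 for PAL3, -1.56 for PAL4, -1.58 for C4H, -1.58 for 4CL1, -3.01 for 4CL2 and -2.39 for 4CL5. The experiments were run on separate mock seedlings and counted on separate assemblies. Each of the 9 genes was checked for a library apart from its group, in the zeocin and in the mock group of 5, 18 sets in all. No library was flagged, but some gaps were wide. PAL4 had 6.49 CPM in zeocin replicate 3 and 8.30 to 9.33 CPM in the other zeocin libraries. 4CL2 had 26.7 CPM in zeocin replicate 5 and 17.5 to 21.4 CPM in the others. 4CL3 had 19.1 CPM in mock replicate 4 and 5.94 to 11.8 CPM in the other mock libraries.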

How the results depend on the processing

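No called direction reversed under any alternative run. Zeocin values that were not called crossed 0 with libraries left out: the log2 fold change of 4CL1 ranged from -0.02 to 0.12, of PAL4 from -0.04 to 0.12 and of the summed level from -0.01 to 0.10, and the share of PAL4 in the PAL sum also changed sign. With the replicate block, PAL3 (-0.31, adjusted p = 0.0190) and 4CL5 (-0.37, adjusted p = 0.0342) were called after zeocin, and the counts of calls were 3121 that rose and 2554 that fell. The replicate numbers gave no consistent pairing: deviations of same-numbered libraries correlated between -0.10 and 0.43 in the zeocin experiment and between -0.30 and 0.16 in the UV-C experiment. Zeocin replicates 1 (0.43) and 3 (0.25) were most like the mock library of the same number, and replicates 2, 4 and 5 were not. With libraries left out in turn, the zeocin log2 fold change ranged from -0.47 to -0.31 for 4CL2 (adjusted p 0.0147 to 0.114) and from -0.47 to -0.28 for 4CL5. The UV-C value of 4CL3 ranged from 0.23 to 0.57 and the PAL3 difference between responses from -1.05 to -0.64. The other members kept their fold-change calls under every alternative run. The UV-C experiment has 3 libraries a group, so permutation tests there cannot go below 0.1. 4CL3 had at most 92 counts in a UV-C library, and its interval reaches from -0.02 to 0.87.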
